A study of Homo sapiens with 9 samples.

Results

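Transcript levels of 10 genes that encode marrow homing and adhesion receptors were followed in a human myeloma cell line, MM.1S, with and without EGCG. The genes are CXCR4, SELPLG, CD44, ITGA4, ITGB1, ITGAL, ITGB2, ICAM2, ICAM3 and NCAM1. Each symbol was looked up among the 60675 gene IDs of the count table and matched 1 ID. The genes were chosen with earlier results of these data known. The groups were control cells given 0 µM EGCG, cells given 40 µM and cells given 80 µM, all for 24 h, with 3 libraries each. EGCG is epigallocatechin gallate, the main catechin of green tea, and the series set out to follow how it acts on myeloma cells that undergo apoptosis. All groups are the same line in culture, with no genetic change and no marrow stromal cells named in the labels. The labels do not say whether the replicates were separate cultures, so a p-value here speaks only of how these libraries vary.

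Plasma cells and myeloma cells reach the bone marrow and stay in it through surface receptors. The chemokine receptor CXCR4 senses CXCL12 from stromal cells, the selectin ligand PSGL-1 (gene SELPLG) and CD44 support the first contacts with vessel walls and matrix, and integrins then hold the cell firmly. Each integrin is a pair of an alpha and a beta chain. ITGA4 pairs with ITGB1 or ITGB7 to bind VCAM1, fibronectin or MADCAM1, and ITGAL pairs with ITGB2 to form LFA-1, which binds the ICAM proteins. NCAM1 (CD56) is a neural cell adhesion molecule that malignant plasma cells often carry and normal plasma cells mostly lack.

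Library totals ran from 12674490 to 16427343 counts, so that 3 counts, taken as the floor of 1 library, correspond to 0.183 to 0.237 CPM (library-scaled counts, as edgeR defines the unit). Plasma cell markers fitted the label, since none of 10 was at 0 and their summed level was 6962 to 7426 CPM in control libraries, 6602 to 7311 CPM with 40 µM and 5854 to 6658 CPM with 80 µM. Of the markers of other cells, 2 of 6 for mature B cells, 2 of 7 for T and NK cells, 2 of 7 for monocytes and 2 of 7 for stromal and endothelial cells had 0 counts in all 9 libraries. The summed level of the mature B cell list was 74.7 to 79.8 CPM in control libraries, 63.4 to 66.7 CPM with 40 µM and 37.1 to 43.4 CPM with 80 µM, nearly all of it CIITA, which fell to 39.3 ± 3.59 CPM at 80 µM against 74.7 ± 3.06 CPM in the control (adjusted p = 0.000131, edgeR). The T and NK cell list summed to 4.98 to 7.29 CPM in control libraries, 3.43 to 5.69 CPM with 40 µM and 3.98 to 5.16 CPM with 80 µM, and in it CD3E fell to 1.89 ± 0.334 CPM at 80 µM against 4.17 ± 0.670 CPM in the control (adjusted p = 0.00774, edgeR). Others of that list did not fall: GNLY averaged 1.90 ± 0.490 CPM at 80 µM and 1.62 ± 0.554 CPM in the control. CD247 averaged 0.669 ± 0.638 CPM at 80 µM and 0.384 ± 0.0874 CPM in the control. The stromal and endothelial list summed to 1.69 to 3.90 CPM in control libraries, 1.66 to 2.04 CPM with 40 µM and 1.71 to 2.03 CPM with 80 µM, and the part of these markers in the results was not tested. Mitochondrial ribosomal RNA took 0.649 to 0.731% of counts in control libraries, 1.28 to 1.63% with 40 µM and 3.97 to 4.65% with 80 µM, and its part in the differences given here was not tested. The second replicate at 40 µM stood apart on the second principal component of all genes, which held 13.7% of the variance, and without it the receptor genes called at 40 µM against control were again NCAM1 and ITGAL. In bulk RNA, fewer cells of a kind and less RNA per cell cannot be told apart.

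All 10 genes passed the filter on low counts, ITGB2 only through its libraries with EGCG, so that it had to differ and is left out of the counts here. At 80 µM against control, 3 of the other 9 genes were called at an adjusted p under 0.05 by edgeR's quasi-likelihood test. NCAM1 rose, and CXCR4 and ITGA4 fell. The share called over all 15982 genes tested was 34.9%, with 17.4% higher and 17.5% lower, so the count for the receptors lay near the background. At 40 µM against control 2 receptor genes were called, NCAM1 higher and ITGAL lower, where 2.30% of all genes were called (1.49% higher and 0.813% lower). At 80 µM against 40 µM 4 were called, NCAM1 and ITGAL higher and CXCR4 and ITGA4 lower, where 23.0% of all genes were called (10.9% higher and 12.1% lower). The median log2 fold change of the 9 was 0.06 for 80 µM, 0.03 for 40 µM (each over control) and 0.08 between the doses, where all genes tested had medians of 0.00, 0.02 and -0.01. The 3 comparisons share libraries, so their values for a gene are not independent of each other.

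**Figure D1:**
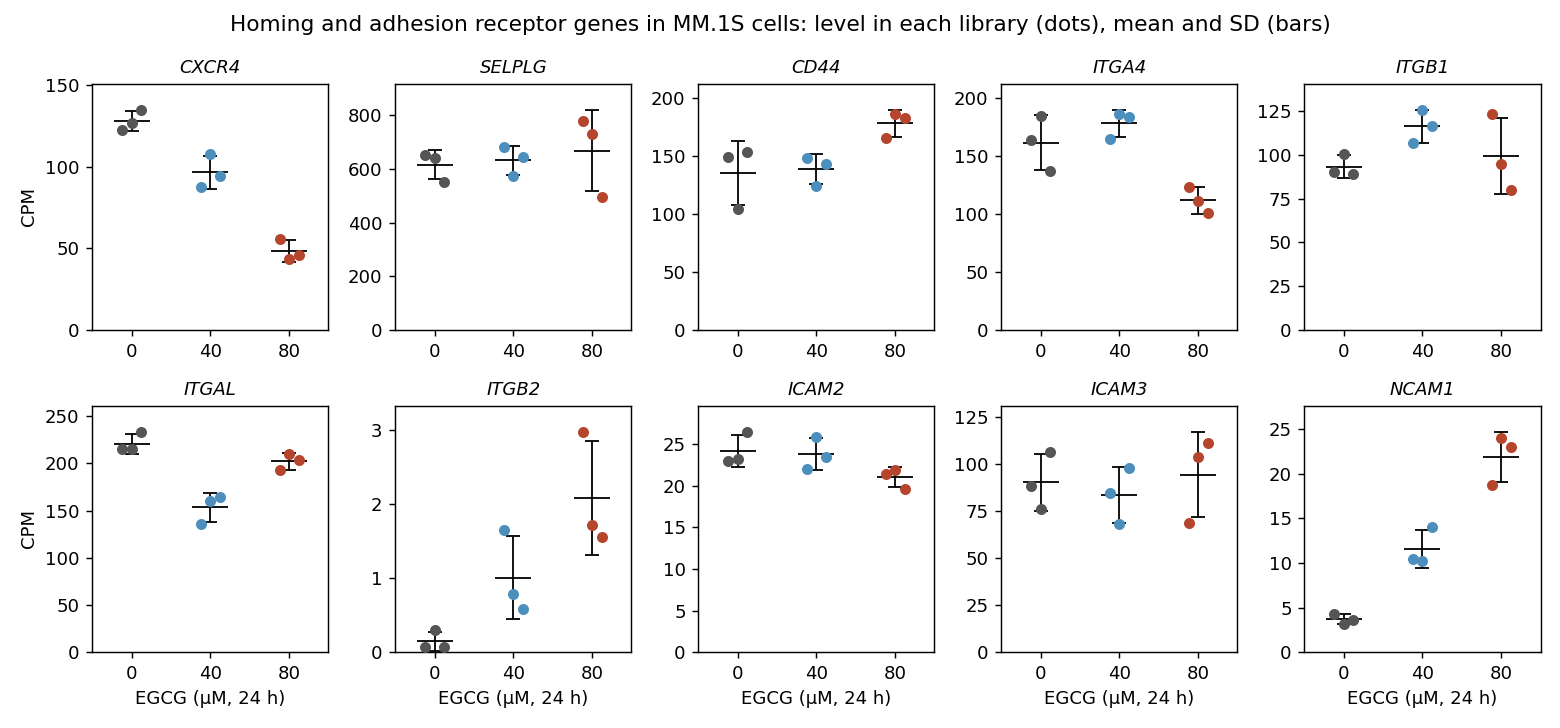
Level of each of the 10 receptor genes in CPM (linear axes from 0, each with its own scale) by EGCG dose, with a dot for each library, a long bar for the mean and whiskers for the SD of 3 libraries. CXCR4 steps down and NCAM1 steps up with dose without overlap between any groups, ITGAL is lowest at 40 µM, and ITGB1, SELPLG and ICAM3 at 80 µM spread across their control libraries.

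CXCR4, the receptor through which CXCL12 draws cells into the marrow, lies at chr2:136114349-136118165 on the minus strand (GRCh38, ENSG00000121966). Its level was 123, 127 and 135 CPM in control libraries, 87.7, 108 and 94.4 CPM with 40 µM and 56.1, 43.4 and 45.8 CPM with 80 µM. No library of one dose reached into the range of another, and the order of the doses was the same in each. At 80 µM CXCR4 fell 2.64-fold against control, a log2 fold change of -1.40 ± 0.13 (SE; 95% interval -1.68 to -1.12, adjusted p = 3.22e-05, edgeR's quasi-likelihood test). The step between the doses was also called, with a 1.99-fold lower level at 80 µM against 40 µM (adjusted p = 0.000731 by the same edgeR test). The lower dose alone gave -0.41 ± 0.12 against control (95% interval -0.68 to -0.13), which did not pass (adjusted p = 0.117, edgeR). Each of these CXCR4 results kept its direction and its call under all 17 alternatives.

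The stretch before the CXCR4 start is shown beside that of ITGA4 because these were the receptor genes that fell at 80 µM. Each line ends just before the first base of the GENCODE 29 gene and is written 5′ to 3′ along the gene's own strand, with matches to CCACCC (the KLF box, on either strand) in capitals. The sequences are from RefSeq on GRCh38.p14.
CXCR4, chr2:136118166-136118399, minus strand: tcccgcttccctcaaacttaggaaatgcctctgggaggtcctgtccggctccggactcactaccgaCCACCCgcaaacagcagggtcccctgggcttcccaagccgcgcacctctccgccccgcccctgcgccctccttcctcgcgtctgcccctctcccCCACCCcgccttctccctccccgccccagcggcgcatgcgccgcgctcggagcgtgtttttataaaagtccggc
ITGA4, chr2:181457136-181457201, plus strand: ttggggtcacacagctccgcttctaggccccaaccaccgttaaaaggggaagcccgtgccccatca
The search covered the 250 bases before the RefSeq start, which is at 136118149 for CXCR4 and at 181457386 for ITGA4, so the last 16 bases of that window for CXCR4 and the last 184 for ITGA4 are not printed. The CXCR4 window held the KLF box at 184 to 179 and at 90 to 85 bases before the start, and the ITGA4 window held 1 copy at 23 to 18 bases, inside the unprinted stretch. The same letters occur in 31.3% of the 35116 RefSeq promoter windows of this length. The AP-1 site TGANTCA, the ATF4 element TGATGNAA and the E-box CACGTG, which occur in 6.57%, 3.14% and 6.34% of those windows, were in neither window. RefSeq lists other starts for CXCR4, and it was not tested which start these cells used.

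A list of 31 chemokine and S1P receptors with genes of CXCR4 signalling and turnover had 20 tested genes, and at 80 µM against control 4 were higher, 8 were lower and 8 were not called, with a median log2 fold change of -0.05. Over all genes tested 17.4% were higher and 17.5% were lower. Among its 15 receptors, 6 had enough counts to be tested, and all 6 fell, with log2 fold changes of -1.36 to -0.71 and a median of -1.08. The grouping of receptors apart from signalling genes was made after their values were seen. The other 9 were too low to test, among them ACKR3, the other CXCL12 receptor, which had 0, 0 and 1 counts in control libraries, 8, 1 and 2 with 40 µM and 10, 4 and 6 with 80 µM (named after its values were seen). CXCR3, the receptor for interferon-induced chemokines, averaged 24.8 ± 0.397 CPM at 80 µM and 63.6 ± 8.35 CPM in the control (SD, n = 3 each), a log2 fold change of -1.36 ± 0.12 (adjusted p = 2.78e-05, edgeR's quasi-likelihood test). CCR1, a receptor for CCL3 and CCL5, averaged 137 ± 9.33 CPM at 80 µM and 304 ± 24.8 CPM in the control (adjusted p = 2.37e-05, same edgeR test). CCR10, which guides plasma cells to mucosal sites, averaged 57.6 ± 7.03 CPM at 80 µM and 112 ± 14.7 CPM in the control (adjusted p = 0.000499, edgeR). The groups did not overlap for any of these. CCR2, a receptor for CCL2, fell as well, to 8.93 ± 0.588 CPM at 80 µM against 18.1 ± 0.880 CPM in the control (adjusted p = 0.000206, edgeR). S1PR2, a receptor for sphingosine 1-phosphate, fell too (-0.71, adjusted p = 0.00118, edgeR) and was named after its value was seen. At 40 µM against control none of the 6 was called, and their log2 fold changes ran from -0.44 to -0.29. The nearest to a call were S1PR2 (-0.44, adjusted p = 0.0816) and CXCR3 (-0.42, adjusted p = 0.0913, both by edgeR), and DESeq2 called both. Between 80 µM and 40 µM 5 of the 6 were lower, and S1PR2 was not called (-0.27, adjusted p = 0.13, edgeR). The 14 tested genes of CXCR4 signalling and turnover held 4 higher, 2 lower and 8 not called at 80 µM against control, with a median log2 fold change of 0.23.

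**Figure D2:**
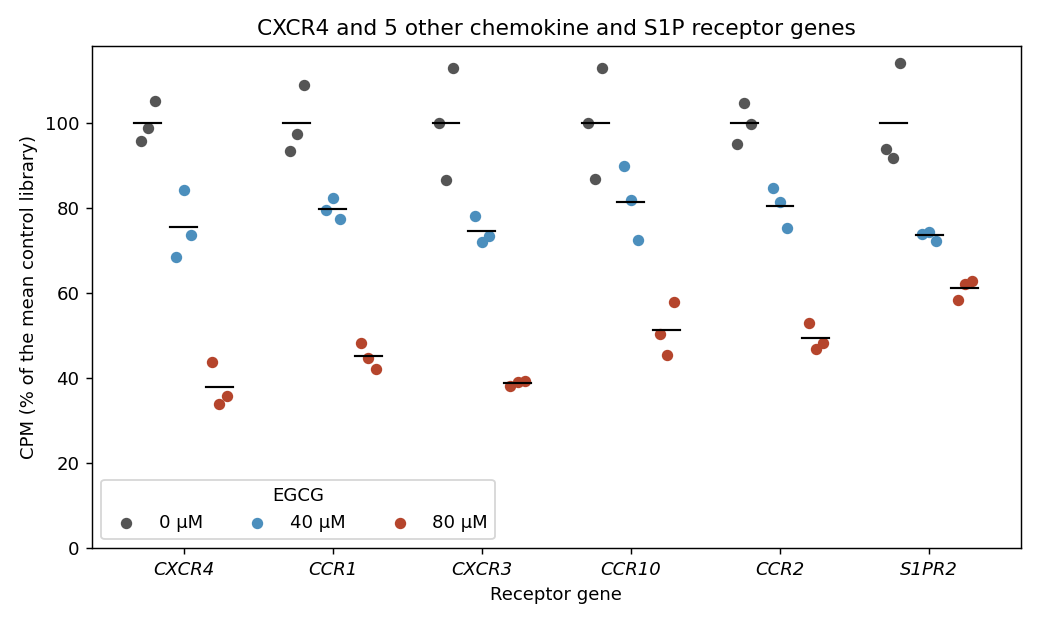
Level of CXCR4 and of 5 of the other tested chemokine and S1P receptor genes as a percent of the mean control CPM (linear axis from 0), by EGCG dose, with a dot for each library and a bar for the mean of 3. Every receptor shown is lowest at 80 µM and at 40 µM averages below its control, and no library at 80 µM reaches its control libraries.

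SELPLG encodes PSGL-1, the mucin that selectins on vessel walls bind, and lies at chr12:108622277-108633959 on the minus strand (ENSG00000110876). It had the highest level per length of the 10 genes at each dose, at 104 ± 13.9 FPKM in control libraries, 106 ± 11.5 FPKM with 40 µM and 115 ± 25.5 FPKM with 80 µM (SD, n = 3 each). Its CPM was 652, 641 and 552 in control libraries, 680, 574 and 643 with 40 µM and 779, 728 and 497 with 80 µM. The 3 ranges overlap, and the third library at 80 µM was below every other library. No SELPLG comparison was called: the log2 fold change was 0.12 at 80 µM against control (95% interval -0.23 to 0.47, adjusted p = 0.597) and 0.04 at 40 µM against control (-0.31 to 0.39, adjusted p = 0.916, both by edgeR's quasi-likelihood test). Rises of up to 0.47 at 80 µM and 0.39 at 40 µM on the log2 scale thus lie inside these intervals. Because CXCR4 fell and SELPLG was not called, the ratio of SELPLG to CXCR4 per length was 3.52 to 4.55 in control libraries, 4.56 to 6.64 with 40 µM and 9.29 to 14.4 with 80 µM.

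PSGL-1 binds selectins only once it is glycosylated and sulfated, and 13 of 15 listed genes for these steps were tested. The higher dose against control gave 1 higher, 4 lower and 8 not called, with a median log2 fold change of -0.08. That is 38.5% called, near the 34.9% over all genes tested. TPST2 and TPST1, the tyrosine sulfotransferases, both fell. TPST2 averaged 229 ± 29.4 CPM at 80 µM and 411 ± 85.5 CPM in the control (log2 fold change -0.84 ± 0.20, adjusted p = 0.00756), and TPST1 averaged 8.90 ± 0.312 CPM at 80 µM and 14.0 ± 1.24 CPM in the control (-0.65 ± 0.16, adjusted p = 0.00903, both by edgeR). Of the fucosyltransferases, FUT8, which makes core fucose on N-glycans, fell to 17.3 ± 0.566 CPM at 80 µM against 29.3 ± 2.20 CPM in the control (adjusted p = 0.00113, edgeR). FUT4, which adds the outer fucose of Lewis-type glycans, rose to 13.1 ± 0.517 CPM at 80 µM against 7.50 ± 0.797 CPM in the control (adjusted p = 0.00272, edgeR). FUT7, a further fucosyltransferase of the list, had 0 counts in all 9 libraries and was not tested (named after its values were seen). None of the 13 was called at 40 µM, where GCNT1, the core 2 branching enzyme, had the largest value named, 1.39 ± 0.56 (adjusted p = 0.201, edgeR), and C1GALT1, the core 1 enzyme, had 0.28 ± 0.15 (adjusted p = 0.318, edgeR). The GCNT1 value rested on the second control library: without it the log2 fold change was 2.78 (adjusted p = 0.00417, edgeR).

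CD44, the receptor for hyaluronan, lies at chr11:35138870-35232402 on the plus strand (ENSG00000026508). Its level was 150, 104 and 154 CPM in control libraries, 149, 125 and 143 CPM with 40 µM and 165, 187 and 183 CPM with 80 µM. The libraries at 80 µM stood above all 6 others, while the control and 40 µM libraries overlapped, with the second control library the lowest of all. The log2 fold change at 80 µM against control was 0.39 ± 0.15 (95% interval 0.07 to 0.72) and missed the threshold (adjusted p = 0.061, edgeR's quasi-likelihood test). CD44 was called with library totals alone as the scaling (adjusted p = 0.0482, edgeR), with a stricter filter (0.0497, edgeR) and with DESeq2 (0.0456). It rested in part on the low second control library, without which the log2 fold change was 0.24 (adjusted p = 0.146, edgeR). The value at 80 µM against 40 µM was 0.36 ± 0.15 (adjusted p = 0.105, edgeR), and it was called with the 6 libraries compared alone (0.0384, edgeR) and without control replicate 2 (0.0332, edgeR). ADAM17, a protease that sheds surface proteins, rose to 73.6 ± 4.70 CPM at 80 µM against 31.2 ± 6.81 CPM in the control, a log2 fold change of 1.24 ± 0.15 (adjusted p = 0.00018, edgeR). It was 1 of 12 tested of 14 listed linkers of CD44 and PSGL-1 to the cytoskeleton and their sheddases, of which 2 were higher, 1 was lower and 9 were not called, with a median of -0.10. The share called in this list was 25%, against 34.9% over all genes tested. The other higher gene was STK10, a kinase of the ERM linkers (0.38 ± 0.10, adjusted p = 0.0131), and the 1 lower gene was NHERF1, an ERM-binding scaffold (-0.59 ± 0.16, adjusted p = 0.0143, both by edgeR), whose call was lost without 80 µM replicate 2 (0.0556, edgeR). ADAM8, a further sheddase, fell at 40 µM, to 344 ± 48.3 CPM against 499 ± 45.6 CPM in the control (-0.54 ± 0.12, adjusted p = 0.0479, edgeR), a call lost under 11 of the 17 alternatives. The adjusted p of ADAM8 by edgeR was 0.132, 0.0609 and 0.115 when control replicate 1, 2 or 3 was left out, 0.116 and 0.147 when 40 µM replicate 2 or 3 was, and 0.0716, 0.0875 and 0.0832 when 80 µM replicate 1, 2 or 3 was, with 0.0748 without a filter, 0.0824 with the replicate block and 0.108 with the 6 libraries alone. ADAM8 at 80 µM against control gave -0.26 ± 0.12 (adjusted p = 0.118), and RDX, the linker radixin, gave 0.62 ± 0.19 at 40 µM (adjusted p = 0.122, both by edgeR).

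ITGA4, the alpha 4 chain of the VCAM1 receptor VLA-4, lies at chr2:181457202-181536187 on the plus strand (ENSG00000115232). Its level was 164, 184 and 137 CPM in control libraries, 165, 186 and 184 CPM with 40 µM and 123, 112 and 101 CPM with 80 µM. Every library at 80 µM was below the other 6, while the control and 40 µM libraries overlapped. ITGA4 fell 1.45-fold at 80 µM against control, a log2 fold change of -0.53 ± 0.13 (95% interval -0.81 to -0.25, adjusted p = 0.00866, edgeR's quasi-likelihood test). Against 40 µM it fell 1.59-fold (-0.67 ± 0.13, adjusted p = 0.00464, edgeR). The log2 fold change at 40 µM against control was 0.14 (95% interval -0.14 to 0.42, adjusted p = 0.56, edgeR). These ITGA4 results kept their direction and call under all 17 alternatives.

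ITGB1, the beta 1 chain that pairs with ITGA4 and with many other alpha chains, lies at chr10:32900319-33005792 on the minus strand (ENSG00000150093). Its level was 90.0, 101 and 88.9 CPM in control libraries, 107, 125 and 116 CPM with 40 µM and 123, 94.8 and 80.0 CPM with 80 µM. The 40 µM libraries stood above the control ones, and the libraries at 80 µM spread from below the lowest control to above the highest. No ITGB1 comparison passed: 0.09 at 80 µM against control (95% interval -0.24 to 0.42, adjusted p = 0.665), 0.32 at 40 µM against control (-0.01 to 0.65, adjusted p = 0.266) and -0.23 at 80 µM against 40 µM (-0.56 to 0.10, adjusted p = 0.307, all by edgeR). The ratio of ITGA4 to ITGB1 per length averaged 3.55 ± 0.333 in control libraries, 3.15 ± 0.0999 with 40 µM and 2.35 ± 0.265 with 80 µM (SD, n = 3 each), with all 3 ratios at 80 µM under the 6 others. In CPM, which takes no account of length, the control means were 162 ± 23.6 for ITGA4 and 93.1 ± 6.46 for ITGB1.

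The other beta chain of ITGA4 was far more abundant in these cells. ITGB7 stood at 645, 646 and 810 FPKM in control libraries, 596, 529 and 554 FPKM with 40 µM and 415, 433 and 453 FPKM with 80 µM, so its level per length was 185 to 285 times that of ITGB1 in the control libraries. Such ratios depend on the gene lengths behind the deposited FPKM, which are not given and only implied by counts and FPKM together. In the first control library ITGB1 had 1333 counts and 3.13 FPKM, and ITGA4 had 2423 counts and 11.7 FPKM. The length set for ITGB1 was thus greater than that for ITGA4, which lowers ITGB1 in values per length. The lengths were not compared with those of the transcripts. In CPM, which takes no account of length, the control means were 6426 ± 1203 for ITGB7 and 93.1 ± 6.46 for ITGB1. ITGB7 fell at 80 µM, to 3898 ± 150 CPM against 6426 ± 1203 CPM in the control (log2 fold change -0.72 ± 0.13, adjusted p = 0.00179, edgeR's quasi-likelihood test). At 40 µM against control it gave -0.32 ± 0.13, which was not called (adjusted p = 0.208, edgeR). The ratio of ITGB7 to ITGA4 per length averaged 64.9 ± 22.0 in control libraries, 46.1 ± 5.26 with 40 µM and 55.6 ± 7.78 with 80 µM, and the ranges at 80 µM and in the control overlap. Both chains of the MADCAM1 receptor thus fell at the higher dose.

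ITGAL, the alpha chain of LFA-1, lies at chr16:30472658-30523185 on the plus strand (ENSG00000005844). Its level was 215, 215 and 233 CPM in control libraries, 136, 160 and 165 CPM with 40 µM and 193, 210 and 203 CPM with 80 µM. It was the 1 receptor gene whose lowest group was 40 µM with a call on both sides, and no library of one dose entered the range of another. ITGAL fell 1.44-fold at 40 µM against control (log2 fold change -0.53 ± 0.10, 95% interval -0.75 to -0.30, adjusted p = 0.0268, edgeR's quasi-likelihood test), and was higher again at 80 µM against 40 µM (0.40 ± 0.10, adjusted p = 0.0181, edgeR). It was not called at 80 µM against control (-0.13 ± 0.10, 95% interval -0.35 to 0.09, adjusted p = 0.355, edgeR). The call at 40 µM was lost under 8 of 17 alternatives, each with an adjusted p near the threshold: 0.0511 with the replicate number as a block, 0.0766 with the 6 libraries alone, 0.0834, 0.0548 and 0.0599 when control replicate 1, 2 or 3 was left out, 0.0622 when 40 µM replicate 3 was, and 0.0537 and 0.0559 when 80 µM replicate 2 or 3 was (all by edgeR). The call between the doses was lost without 40 µM replicate 1 (0.0579), 80 µM replicate 2 (0.0694) or 80 µM replicate 3 (0.0553, all by edgeR).

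ITGB2, the beta chain that LFA-1 needs, was nearly silent, and lies at chr21:44885953-44931989 on the minus strand (ENSG00000160255). It had 1, 4 and 1 counts in control libraries, 27, 11 and 8 with 40 µM and 40, 27 and 20 with 80 µM. Only the second control library was above the floor of 3 counts, and every library with EGCG was above every control library. Summed over libraries, 87 counts at 80 µM against 6 in the control give a ratio of 14.5 for equal depth (exact binomial 95% interval 6.39 to 40.6, counting error only), and 46 counts at 40 µM give 7.12 (3.03 to 20.4). The fit of edgeR's quasi-likelihood test gave a log2 fold change of 3.76 ± 0.62 at 80 µM against control (95% interval 2.39 to 5.13, adjusted p = 0.00112). As ITGB2 passed the filter only through its libraries with EGCG, that p is a description and no support for the difference. At 40 µM it gave 2.74 ± 0.66 against control and was not called (adjusted p = 0.0613, edgeR), and at 80 µM against 40 µM 1.02 ± 0.46 (adjusted p = 0.14, edgeR). The fitted size rests on the few control counts: without control replicate 2 it was 4.71 at 80 µM and 3.68 at 40 µM. Per length, ITGB2 at 80 µM still averaged 0.173 ± 0.0617 FPKM, against 0.0122 ± 0.0111 FPKM in the control (SD, n = 3 each). ITGAL exceeded it 397 to 1751 times in control libraries, 45.3 to 155 times with 40 µM and 35.7 to 71.8 times with 80 µM.

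ITGAM, another alpha chain that pairs with ITGB2, was likewise at or near the floor in the control. It had 28, 24 and 25 counts at 80 µM against 3, 4 and 0 in the control, a ratio of 10.99 (exact binomial 95% interval 5.09 to 28.3, counting error only). The fitted log2 fold change was 3.38 ± 0.58, or 4.01 without control replicate 2 (adjusted p = 0.00139, edgeR's quasi-likelihood test), but ITGAM passed the filter only through its libraries at 80 µM, so that p too is a description. ITGAM is also 1 of the 7 genes in the monocyte marker list, of which 2 were at 0 everywhere and the other 4 beside it were under 1 CPM in every library. The summed level of that list was 0.536 to 1.15 CPM in control libraries, 1.01 to 1.31 CPM with 40 µM and 2.48 to 2.90 CPM with 80 µM, ITGAM included. LYZ was at 0 in all 3 libraries at 80 µM, CD14 averaged 0.391 ± 0.146 CPM at 80 µM and 0.412 ± 0.0441 CPM in the control, and CSF1R averaged 0.413 ± 0.242 CPM at 80 µM and 0.210 ± 0.173 CPM in the control. The part of monocyte transcripts in these values was not tested.

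**Figure D3:**
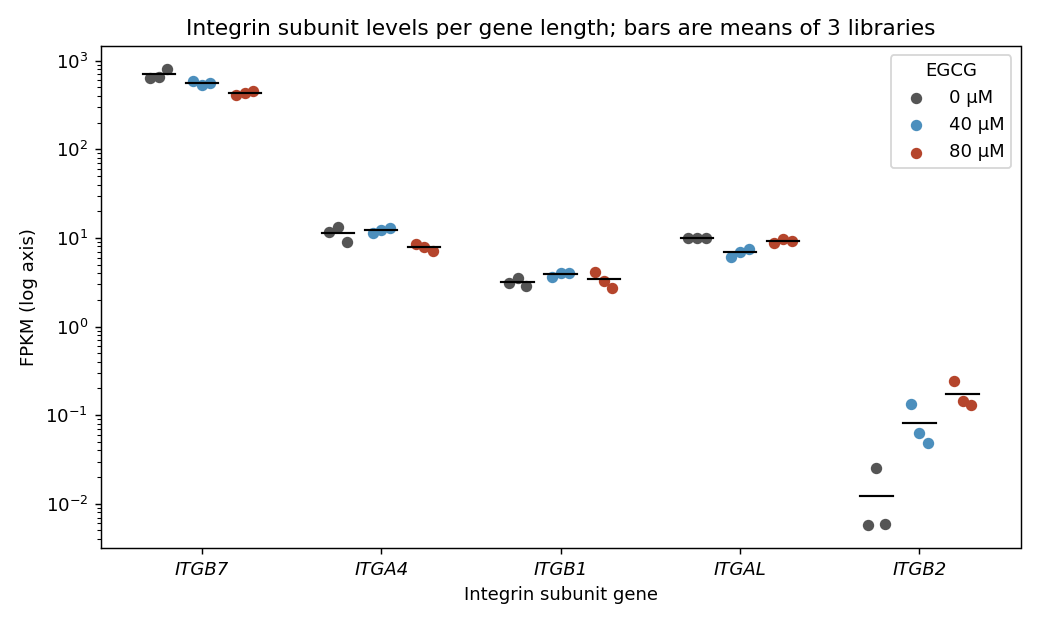
FPKM of ITGB7, ITGA4, ITGB1, ITGAL and ITGB2 (logarithmic axis) by EGCG dose, with a dot for each library and a bar for the mean of 3. ITGB7 lies above 400 FPKM and ITGB2 under 1 FPKM at every dose, with the other chains between 2 and 14 FPKM.

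Of 22 further integrin chains 13 were tested, and at 80 µM against control 2 were higher, 2 were lower and 9 were not called, with a median log2 fold change of 0.04. Without ITGAM, 1 of 12 was higher and 2 were lower, and the median was -0.13. Over all genes tested 17.4% were higher and 17.5% were lower. Beside ITGB7, ITGB5 fell to 111 ± 1.98 CPM at 80 µM against 202 ± 22.9 CPM in the control (-0.87 ± 0.10, adjusted p = 0.000164). Its vitronectin receptor partner ITGAV rose to 36.0 ± 2.09 CPM against 24.9 ± 4.64 CPM in the control (0.53 ± 0.16, adjusted p = 0.0244, both by edgeR's quasi-likelihood test). The ITGAV call was lost without a filter on low counts (0.0548) and without control replicate 3 (0.0773), 80 µM replicate 1 (0.0542) or 80 µM replicate 3 (0.0679, all by edgeR). At 40 µM none of the 13 was called, with ITGB5 nearest (-0.36 ± 0.10, adjusted p = 0.0985, edgeR), and DESeq2 called it.

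Inside the cell, talins, kindlins and Rap GTPases switch integrins on, and focal adhesion proteins link them to actin. Of 33 such genes 28 were tested, and at 80 µM against control 6 were higher, 7 were lower and 15 were not called, with a median of 0.00. The share called was 46.4%, where 34.9% of all genes tested were called. FYN, a Src family kinase downstream of integrins, rose at both doses. It averaged 46.6 ± 2.09 CPM at 80 µM and 12.5 ± 0.967 CPM in the control (log2 fold change 1.90 ± 0.12, adjusted p = 3.67e-06), and 19.8 ± 1.14 CPM at 40 µM (0.67 ± 0.12, adjusted p = 0.018, both by edgeR's quasi-likelihood test). The FYN call at 40 µM was lost with the replicate block (0.055), with the 6 libraries alone (0.0803) and without control replicate 1 (0.0834) or 40 µM replicate 3 (0.0624, all by edgeR). Of the kindlins, FERMT1 fell to 15.7 ± 1.93 CPM at 80 µM against 37.6 ± 3.48 CPM in the control (-1.26 ± 0.13, adjusted p = 8.19e-05), and FERMT2 rose to 4.75 ± 0.745 CPM against 1.72 ± 0.0575 CPM in the control (1.46 ± 0.23, adjusted p = 0.000926, both by edgeR). FERMT3, named after its values were seen, averaged 16.8 ± 0.808 CPM at 80 µM and 17.3 ± 1.49 CPM in the control. PARVB, a parvin that sits with integrin-linked kinase, fell to 84.8 ± 3.86 CPM at 80 µM against 153 ± 25.2 CPM in the control (adjusted p = 0.00048, edgeR). RAP1B, a Rap GTPase, gave 0.49 ± 0.14 at 40 µM against control (adjusted p = 0.098, edgeR), and was called there by DESeq2 and, without 40 µM replicate 1, by edgeR (0.0471).

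ICAM2 and ICAM3 encode ligands of LFA-1 on leukocytes. ICAM2 lies at chr17:64002594-64020634 on the minus strand (ENSG00000108622), and its level was 22.9, 23.1 and 26.4 CPM in control libraries, 22.0, 25.8 and 23.4 CPM with 40 µM and 21.4, 21.9 and 19.6 CPM with 80 µM. The libraries at 80 µM were all below the control ones, by a log2 fold change of -0.20 (95% interval -0.47 to 0.07) that was not called (adjusted p = 0.224, edgeR's quasi-likelihood test). ICAM3 lies at chr19:10333776-10339823 on the minus strand (ENSG00000076662), with 88.5, 76.2 and 107 CPM in control libraries, 84.8, 68.5 and 98.2 CPM with 40 µM and 68.6, 104 and 111 CPM with 80 µM. Its 3 groups overlap, and the log2 fold change at 80 µM against control was 0.06 (95% interval -0.38 to 0.51, adjusted p = 0.834, edgeR). ICAM2 at 40 µM against control gave -0.03 (adjusted p = 0.931) and ICAM3 -0.11 (adjusted p = 0.792, both by edgeR), and neither was called between the doses. Exons of ICAM3 overlap AC114271.1 on the opposite strand over 2101 bases, and those of ICAM2 overlap PRR29 over 869 bases; without a stated strand setting the reads of such pairs cannot be told apart. AC114271.1 had 415 counts in control libraries, 393 with 40 µM and 373 with 80 µM, and PRR29 had 108, 103 and 107 counts in the same order of dose.

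Only 6 of 17 listed ligands of these receptors had enough counts to test, and the stromal and vessel ligands CXCL12, VCAM1 and MADCAM1 were among the 11 that did not. The higher dose against control gave 1 higher, 1 lower and 4 not called, with a median log2 fold change of -0.51. That is 33.3% called, near the 34.9% over all genes tested. ICAM1, the third LFA-1 ligand here, rose to 60.2 ± 2.46 CPM at 80 µM against 35.3 ± 6.54 CPM in the control (0.77 ± 0.14, adjusted p = 0.00208), and gave -0.33 ± 0.14 at 40 µM (adjusted p = 0.234, both by edgeR's quasi-likelihood test). MIF, a cytokine that also binds CXCR4, averaged 5.56 ± 0.886 CPM at 80 µM and 8.85 ± 1.48 CPM in the control (-0.67 ± 0.24, adjusted p = 0.0547, edgeR) and was called under 5 of 17 alternatives: library totals alone (0.0498), DESeq2 (0.0455), the 6 libraries alone (0.029), and edgeR without 40 µM replicate 1 (0.0279) or 40 µM replicate 2 (0.0298). MIF at 40 µM against control gave 0.48 (adjusted p = 0.282, edgeR). FN1, the fibronectin that ITGA4 with ITGB1 binds, averaged 19.0 ± 3.40 CPM at 80 µM and 24.4 ± 2.39 CPM in the control (-0.36 ± 0.15, adjusted p = 0.0924), and was called without 80 µM replicate 2 (0.0355, both by edgeR).

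NCAM1 had the largest rise among the receptor genes with more than a handful of control counts. It lies at chr11:112961247-113278436 on the plus strand (ENSG00000149294). Its counts were 64, 43 and 47 in control libraries, 171, 142 and 192 with 40 µM and 252, 376 and 295 with 80 µM, which is 4.32, 3.20 and 3.60 CPM in control libraries, 10.5, 10.2 and 14.0 CPM with 40 µM and 18.7, 24.0 and 23.0 CPM with 80 µM. The 3 doses did not overlap. NCAM1 rose 5.89-fold at 80 µM against control (log2 fold change 2.56 ± 0.19, 95% interval 2.13 to 2.98, adjusted p = 1.07e-05) and 3.11-fold at 40 µM against control (1.64 ± 0.19, 1.21 to 2.06, adjusted p = 0.00173, both by edgeR's quasi-likelihood test). The step from the lower to the higher dose was called too, at 0.92 ± 0.17 for 80 µM against 40 µM (adjusted p = 0.00468, edgeR). It was the 1 receptor gene of the 10 that was called in all 3 comparisons, and all 3 calls held under the 17 alternatives. Per length it remained low, at 0.839 ± 0.118 FPKM at 80 µM against 0.140 ± 0.0241 FPKM in the control (SD, n = 3 each).

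Opposite the NCAM1 gene lies NCAM1-AS1, whose exons share 552 bases with it. Summed over 3 libraries, NCAM1-AS1 had 5 counts in the control, 12 with 40 µM and 71 with 80 µM, while NCAM1 had 154, 505 and 923 counts in that order of dose. AP000802.1, which shares 151 bases, had 0, 0 and 10 counts. Reads of the genes in each such pair cannot be told apart without the strand setting, and the counts of the antisense genes were small beside those of NCAM1. The ITGB2 antisense gene ITGB2-AS1 had 0 counts in all 9 libraries.

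**Figure D4:**
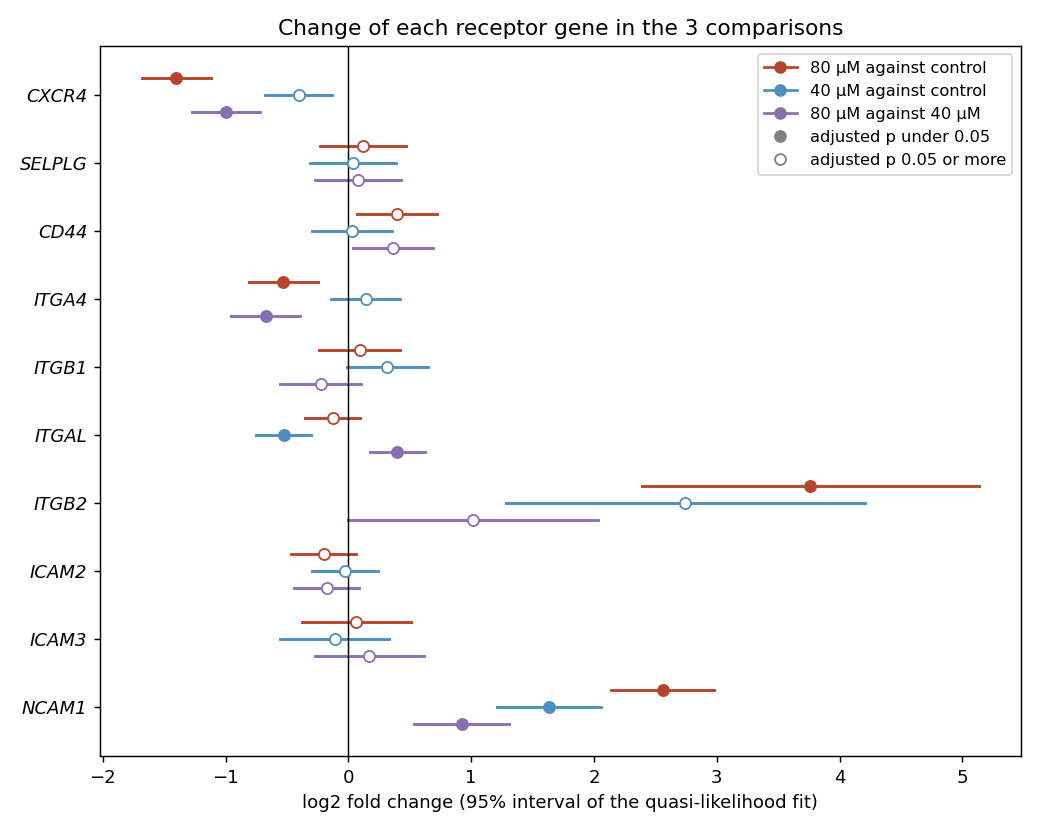
Log2 fold change of each receptor gene (dots) with its 95% interval (lines) for each dose of EGCG over control and for the higher dose over the lower; filled dots have an adjusted p under 0.05 by edgeR's quasi-likelihood test. ITGB2, filled at 80 µM against control, passed the filter only through libraries with EGCG. NCAM1 is filled in all 3 comparisons, CXCR4 and ITGA4 are filled below 0 for both comparisons of 80 µM, and ITGAL is filled below 0 at 40 µM against control and above 0 at 80 µM against 40 µM.

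Of 29 other adhesion proteins of plasma cells 25 were tested, and at 80 µM against control 2 were higher, 8 lower and 15 not called, with a median log2 fold change of -0.36, against 34.9% called over all genes. The tetraspanin CD9 fell to 75.8 ± 6.32 CPM at 80 µM against 168 ± 16.6 CPM in the control (-1.15 ± 0.14, adjusted p = 0.000194, edgeR's quasi-likelihood test). The tetraspanin CD151, an integrin partner, fell to 38.5 ± 2.08 CPM against 70.4 ± 15.5 CPM in the control (adjusted p = 0.00187, edgeR), and PECAM1, a homophilic adhesion protein, to 4.42 ± 0.713 CPM against 10.8 ± 1.57 CPM in the control (adjusted p = 0.000671, edgeR). SLAMF7, the myeloma surface antigen, rose to 636 ± 24.3 CPM at 80 µM against 466 ± 7.24 CPM in the control (0.45 ± 0.08, adjusted p = 0.002, edgeR). SDC1 (CD138), the heparan sulfate proteoglycan of plasma cells, averaged 445 ± 57.0 CPM at 40 µM and 928 ± 31.6 CPM in the control, without overlap. Its log2 fold change of -1.06 ± 0.29 was not called (adjusted p = 0.0863, edgeR) but was called by DESeq2 (0.00496), with the 6 libraries alone (0.0101, edgeR) and without 80 µM replicate 2 (0.00395, edgeR). CDH2, N-cadherin, gave 0.63 ± 0.18 at 40 µM against control (adjusted p = 0.108, edgeR), and DESeq2 called it.

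Per length, the control order of the 10 receptor genes was SELPLG (104 FPKM), CXCR4 (25.2), ITGA4 (11.3), ICAM3 (10.1), ITGAL (9.97), CD44 (6.71), ICAM2 (3.33), ITGB1 (3.16), NCAM1 (0.140) and ITGB2 (0.0122 FPKM, means of 3 libraries). In that order ITGA4 overlaps ICAM3, ICAM3 overlaps ITGAL, and ICAM2 overlaps ITGB1, while the other neighbours are apart. At 40 µM the order was that of the control except that ITGB1 (3.88 FPKM) stood above ICAM2 (3.24 FPKM). At 80 µM CXCR4 had dropped to 9.70 ± 1.19 FPKM, and its libraries overlapped those of ICAM3 (10.8 ± 2.70), ITGAL (9.27 ± 0.554) and CD44 (8.98 ± 0.708), while every CXCR4 library stood above those of ITGA4 (7.86 ± 0.737 FPKM, SD, n = 3 each). SELPLG remained first and NCAM1 and ITGB2 last at each dose. These orders depend on the gene lengths behind the deposited FPKM, which are not given. By mean control CPM, ITGAL (221), ITGA4 (162) and CD44 (136) stood above CXCR4 (128), and ITGB1 (93.1) stood above ICAM3 (90.4) and ICAM2 (24.2).

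For each receptor gene called in some comparison, the 2 genes with the nearest pattern over the 9 libraries were found by the root mean square (RMS) difference of centred log2 CPM, among 10556 candidates with a mean of at least 5 CPM (10557 for ITGB2). SFXN2 and P2RX5 were nearest to CXCR4, at 0.09 and 0.10 against a spread of 0.60 for CXCR4 itself. SFXN2, a mitochondrial serine carrier, averaged 102 ± 5.18 CPM in control libraries, 76.1 ± 5.72 CPM with 40 µM and 36.3 ± 3.98 CPM with 80 µM. P2RX5, an ATP-gated channel, averaged 67.3 ± 6.18 CPM in control libraries, 56.3 ± 3.54 CPM with 40 µM and 26.4 ± 3.24 CPM with 80 µM. TFAM, a transcription factor of mitochondrial DNA, and CBX3, a heterochromatin protein, were nearest to ITGA4 (RMS 0.04 and 0.06, own spread 0.32). PHLDA1 and the DNA helicase FBH1 were nearest to ITGAL (0.10 each, own spread 0.24). PHLDA1 averaged 56.5 ± 3.04 CPM in control libraries, 41.8 ± 2.63 CPM with 40 µM and 49.2 ± 1.39 CPM with 80 µM, with its lowest mean at 40 µM as for ITGAL. ARHGAP9, a GTPase-activating protein, was nearest to NCAM1 (RMS 0.17, own spread 1.06), at 5.01 ± 0.607 CPM in control libraries, 13.5 ± 1.03 CPM with 40 µM and 26.3 ± 3.10 CPM with 80 µM, followed by PSAT1, an enzyme of serine synthesis (0.24). ITGB2 had no close match, with PCK2, the mitochondrial phosphoenolpyruvate carboxykinase, and RAB39B, a small GTPase, at RMS 0.46 and 0.47 against an own spread of 1.33. These likenesses describe the 9 libraries, in which dose is shared by all genes.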

How the data were processed

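RNA of MM.1S cells was measured by RNA sequencing in 9 libraries, 3 each at 0, 40 and 80 µM EGCG. Per the file headers, the deposited table gives each gene's count and FPKM in every library. The counts deposited by the authors are whole numbers without normalization. Their FPKM values, relative to gene length and library depth, served only to compare levels between genes. The gene lengths behind these values are not given. They are implied by the counts and FPKM together, but were not compared with transcript lengths. GRCh38, HISAT2, edgeR, SAMtools 1.3.1 and CASAVA 1.8 are named, per the submitters' processing notes, with no role or order stated. The sources used here give neither the counting program with its strand setting nor the annotation release. Positions are GRCh38 coordinates from GENCODE 29, which holds 58444 of the 60675 gene IDs.

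Genes were filtered with filterByExpr, leaving 15982 genes with 99.71 to 99.83% of the counts per library, and libraries were scaled by TMM (factors 0.945 to 1.031). The main test was edgeR's quasi-likelihood F test (edgeR 4.0.16, R 4.3.3) with dose as the factor over all 9 libraries (6 residual degrees of freedom), and p-values were Benjamini-Hochberg adjusted over all 15982 genes. A gene was called at an adjusted p under 0.05. The standard error of a log2 fold change is its size over the square root of F. The fit was tested on simulated counts. No replicate was a copy of another, since the chi-square per degree of freedom between replicates was 12.71 to 33.21. Intervals of count ratios are exact binomial 95% intervals.

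The receptor genes and the pathway lists were chosen with earlier results of these data known. All 10 receptor genes are described. From each pathway list the 4 genes with the smallest p at 80 µM and the 2 at 40 µM against control were named, with the 2 nearest patterns per called receptor gene. Any other gene is said to be chosen after its values were seen. Single genes named only as cell type markers were also chosen after their values were seen. The 17 alternatives were RLE scaling, library totals alone, no filter, a stricter filter (1 CPM), DESeq2 1.42.0, limma 3.58.1 (voom), the replicate number as a block, only the 6 libraries compared, and leaving out each library. Some results are not reported here.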

Additional observations from a re-analysis of the deposited data

How the results depend on the processing

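Under 17 alternatives CXCR4, ITGA4 and NCAM1 kept their direction and call in all 3 comparisons. The comparison of 40 µM with control was the least stable: 368 genes were called, against 859 with DESeq2, 228 without a filter, 183 with the replicate block, 153 with the 6 libraries alone and 136 to 469 when 1 library was left out (136, 151, 173, 144, 229 and 236 without control replicate 1, control replicate 3, 40 µM replicate 2, 40 µM replicate 3, 80 µM replicate 2 and 80 µM replicate 3). Of the 10 receptor genes 2 were called there, 1 with the replicate block, 1 with the 6 libraries alone, and 1 to 2 when a library was left out. At 80 µM against 40 µM 3674 genes were called, 2101 to 4059 when 1 library was left out (2101 without 80 µM replicate 2 and 2288 without 80 µM replicate 3), with 3 to 5 receptor genes. At 80 µM against control 5574 genes were called, 4170 to 5775 when 1 library was left out, with 4 receptor genes each time, ITGB2 included. Leaving out 1 library turned the sign of uncalled receptor genes: ICAM3 ran from -0.053 to 0.24, ITGB1 from -0.10 to 0.24 and SELPLG from -0.013 to 0.31 at 80 µM against control, CD44 from -0.13 to 0.11, SELPLG from -0.06 to 0.093, ICAM2 from -0.10 to 0.028 and ICAM3 from -0.23 to 0.008 at 40 µM against control, and SELPLG from -0.055 to 0.27 at 80 µM against 40 µM. The cause was not tested. ITGB2 could not be tested with the 6 libraries of 40 µM and control alone, where it did not pass the filter. The deviations of libraries sharing a replicate number correlated at -0.176 to 0.118, and those of the other pairs across doses at -0.225 to 0.222. With 3 libraries per group this check cannot decide whether the numbers pair the libraries. The replicate block called 5069 genes at 80 µM against control and 3078 at 80 µM against 40 µM. Depth limits ITGB2 and ITGAM, whose control counts lie at or near the floor of 3.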
